A study of Mus musculus with 6 samples.

Results

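The protocadherin and cadherin genes of mouse hippocampus were taken as the rows of the gene tables whose name begins with Pcdh or is Cdh followed by digits, leaving out the endothelial gene Cdh5. This gave 84 of 15639 rows and 83 distinct names, because Pcdha11 stood on 2 rows. There were 14 rows of alpha, 21 of beta and 21 of gamma protocadherins, which lie in 3 neighbouring clusters, 11 rows of non-clustered protocadherins and 17 of cadherins. Of these, 80 rows passed a filter of at least 1 FPKM in at least 3 libraries. The other 4, Pcdha1, Pcdha4, Pcdha8 and Cdh1, did not pass it and were described only.

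Total RNA came from the hippocampus of mice aged 6 months, in 3 libraries labelled WT (wild type) and 3 labelled APP/PS1. The latter genotype carries the transgenes labelled APP695swe, a mutant form of the amyloid precursor protein, and PS1-dE9. Strain, sex, pooling and the promoter of the transgenes are not given in the labels. They do not state whether each replicate was an animal of its own, and the spread that the p-values measure, between these libraries, may be technical. Values are taken as FPKM, fragment numbers scaled to transcript length and library size, though no file header names the unit. FPKM can be compared between genes, but less surely within the alpha, beta and gamma clusters, where reads may be shared. The depth behind the values is unknown. Series of 6 values are written as WT replicates 1, 2 and 3 against APP/PS1 replicates 1, 2 and 3, by label.

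The level of App was 69.8, 68.5 and 146 against 153, 71.0 and 166 FPKM. App thus went against the label of WT replicate 3 and of APP/PS1 replicate 2, and results are also given for the 4 libraries without this pair. Markers of dentate granule neurons (5 of 5), CA1 (3 of 3) and CA3 and CA2 (5 of 5) were above 0 in every library. Only 13 to 28 of 15639 rows were at 0 in a library, so these counts do not identify the tissue. In such bulk tissue, fewer cells of a type and less RNA per cell cannot be told apart.

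Cadherins are calcium-dependent adhesion proteins that bind like molecules on the neighbouring cell. Type I and type II cadherins hold on to the actin cytoskeleton through catenins, while protocadherins lack the catenin-binding tail. In the alpha and gamma clusters each variable first exon has a promoter of its own and is spliced to constant exons shared by the whole cluster. Beta genes are single exons with no shared constant part. Single neurons choose among most of these exons by chance, which gives each cell its own surface code for self-avoidance, whereas the C-type genes at the cluster ends are used more evenly.

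Promoter windows were found for 19 of the 83 names in the RefSeq table used here (build GRCm38.p6), each running from 250 bases before to 50 bases after an annotated start. Shown are Pcdh7 and Pcdh18, which had an unadjusted p under 0.05 between labels, and Pcdh10, whose libraries did not overlap, read 5′ to 3′ on the strand of the gene. Capitals mark the GC box GGGCGG on either strand.
Pcdh7, chr5:57717831-57718130, plus strand: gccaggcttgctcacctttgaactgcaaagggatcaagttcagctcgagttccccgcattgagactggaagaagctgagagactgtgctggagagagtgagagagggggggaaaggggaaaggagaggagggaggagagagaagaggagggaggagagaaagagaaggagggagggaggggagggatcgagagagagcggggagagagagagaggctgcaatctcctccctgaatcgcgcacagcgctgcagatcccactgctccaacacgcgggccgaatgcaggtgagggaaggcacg
Pcdh10, chr3:45378148-45378447, plus strand: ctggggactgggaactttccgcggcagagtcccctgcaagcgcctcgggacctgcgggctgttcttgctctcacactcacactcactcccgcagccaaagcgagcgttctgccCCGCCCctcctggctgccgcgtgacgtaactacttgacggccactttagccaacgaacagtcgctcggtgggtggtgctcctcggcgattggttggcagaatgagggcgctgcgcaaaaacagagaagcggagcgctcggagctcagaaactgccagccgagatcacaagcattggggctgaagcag
Pcdh18, chr3:49757267-49757566, minus strand: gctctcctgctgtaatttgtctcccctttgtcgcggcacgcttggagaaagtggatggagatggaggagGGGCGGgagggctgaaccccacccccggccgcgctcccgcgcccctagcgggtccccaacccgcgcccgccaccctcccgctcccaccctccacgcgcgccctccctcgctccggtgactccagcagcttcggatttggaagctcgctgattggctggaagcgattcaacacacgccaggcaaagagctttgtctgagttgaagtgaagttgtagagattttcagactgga
The GC box was found once in the windows of Pcdh10 and Pcdh18 and was not among the letters of the Pcdh7 window. It was present in 8 of the 22 windows of these genes and in 35.7% of all 32851 windows. CpG dinucleotides numbered 11, 24 and 23 in the windows of Pcdh7, Pcdh10 and Pcdh18, where the median of all windows was 7.0. Cdh7, Cdh8 and Cdh10 met the same rules, and their windows are not shown. Those held 18, 19 and 4 CpG dinucleotides for Cdh7, 21 for Cdh8 and 2 for Cdh10. The cyclic AMP response element TGACGTCA, searched on both strands, was in 0 of the 22 windows and in 1.79% of all windows.

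No row of the 80 tested differed between labels at an adjusted p under 0.05 by limma, where 0.0219% of all genes tested did. The smallest adjusted p was 0.609, for Cdh7. At an unadjusted p under 0.05 there were 5 members (Cdh7, Pcdhgb1, Pcdh18, Pcdh7 and Pcdh11x), all higher under the APP/PS1 label, where 6.69% of all genes tested reached that level in either direction and 2.85% did so as higher. The libraries of the 2 labels did not overlap for 12 members, 10 higher and 2 lower, where 11.9% of all genes tested had no overlap (5.38% higher and 6.51% lower). In the 4 libraries 0 members passed, where 0.197% of all genes tested did. There 7 members had an unadjusted p under 0.05, 6 higher and 1 lower, where 9.18% of all genes tested had one (4.2% higher and 4.98% lower). Over both directions the members were called at shares near those of the whole table, and most of those called were higher. One of these, Cdh7, passed the filter through the APP/PS1-labelled libraries alone, so its call as higher is no support. Leaving out WT replicate 2 gave 3 members with an unadjusted p under 0.05 (5.21% of all genes tested), and leaving out APP/PS1 replicate 1 gave 1 (4.08%). Their levels and their spread between libraries are described class by class.

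Non-clustered protocadherins included the highest gene of the family. Pcdh1, a delta-1 protocadherin, was listed at 45.9, 46.6 and 45.8 against 44.2, 46.4 and 42.1 FPKM. Its highest library was 1.11 times its lowest, and the labels overlapped. Pcdh20 followed with 21.8, 23.0 and 32.8 against 24.3, 23.7 and 20.97 FPKM, and Pcdh17, a delta-2 member of presynaptic sites, with 12.5, 14.8 and 16.8 against 14.2, 14.1 and 13.8 FPKM. Both Pcdh20 and Pcdh17 were highest in the library labelled WT replicate 3. The type II cadherin Cdh9, known from the mossy fibre synapse between dentate granule and CA3 neurons, was highest there too, at 11.98 FPKM with 9.14 to 10.5 FPKM elsewhere. The 5 dentate granule markers summed to 60.2, 65.1 and 78.6 against 56.3, 53.8 and 49.1 FPKM, also highest in that library. So did the sums of CA3 and CA2 markers (196.9 FPKM) and of astrocyte markers (176.7 FPKM) peak there. In WT replicates 1 and 2, Cdh9 was lower (9.14 and 9.31 FPKM) than in every APP/PS1-labelled library, unlike the dentate granule sums. The part of these markers in the values was not tested.

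**Figure D1:**
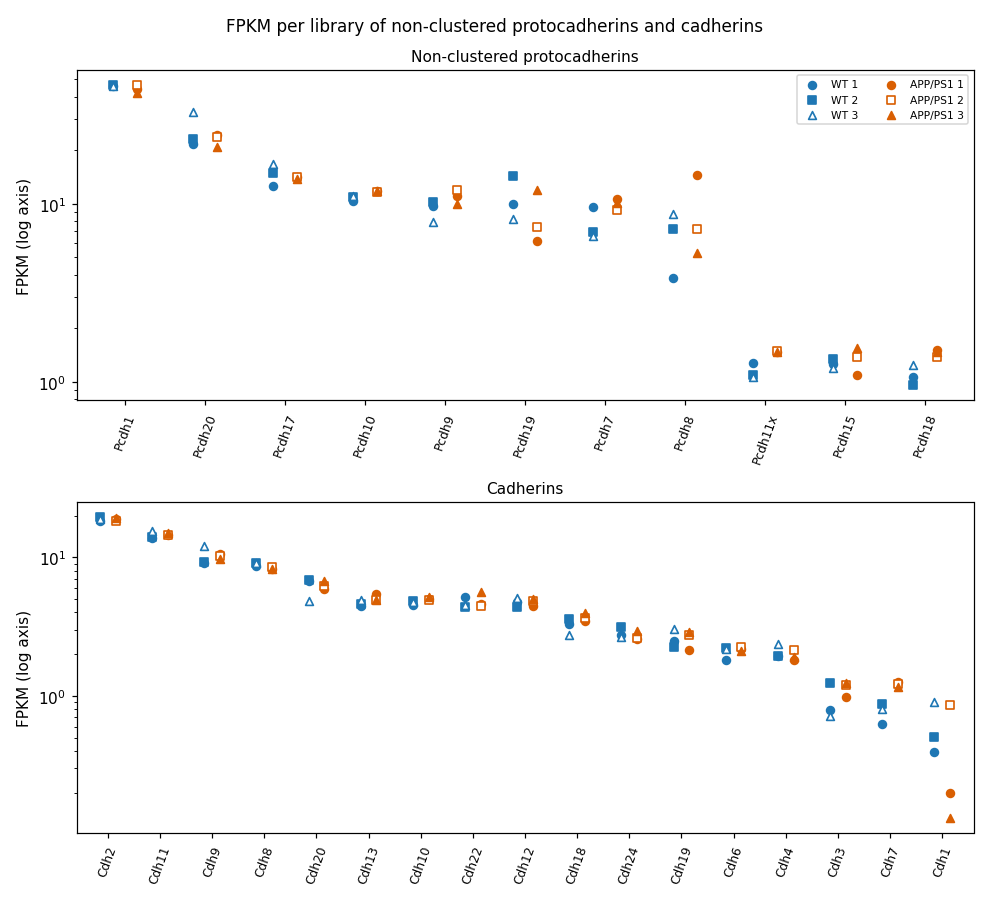
FPKM on a log axis for the 11 non-clustered protocadherins and 17 cadherins, 1 point per library (blue WT, orange APP/PS1, shapes for replicates 1, 2 and 3). Open points are WT replicate 3 and APP/PS1 replicate 2, whose App level went against the label. The points of Pcdh10, Pcdh11x, Pcdh18, Cdh10 and Cdh7 (higher) and of Cdh8 (lower) do not overlap between labels.

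The other delta-1 genes had higher means under the APP/PS1 label. Pcdh7 was listed at 9.58, 6.95 and 6.58 FPKM against 10.7, 9.27 and 10.1 FPKM (log2 fold change 0.35 ± 0.13 SE on the log2(FPKM + 1) scale, limma adjusted p = 0.696). Its WT replicate 1 lay within the APP/PS1-labelled values, so the labels overlapped. Pcdh11x, an X-linked gene, stood at 1.27, 1.09 and 1.06 FPKM against 1.47, 1.48 and 1.47 FPKM (0.21 ± 0.08, adjusted p = 0.707), with a gap between labels and very little spread on the APP/PS1 side. Pcdh9 had 9.675, 10.3 and 7.85 against 11.002, 12.02 and 9.96 FPKM (0.23 ± 0.11, adjusted p = 0.785), and APP/PS1 replicate 3 fell inside the WT range. The log2 fold change of Pcdh9 was 0.06 in the 4 libraries, since WT replicate 3 was its lowest library and APP/PS1 replicate 2 its highest. That of Pcdh7 was 0.31 there and that of Pcdh11x 0.18.

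Among the delta-2 genes, whose tails bind regulators of the actin cytoskeleton, Pcdh10 and Pcdh18 did not overlap between labels. Pcdh10 stood at 10.3, 10.9 and 11.1 FPKM against 11.9, 11.6 and 11.8 FPKM (log2 fold change 0.12 ± 0.05, limma adjusted p = 0.755). Pcdh18 stood at 1.06, 0.955 and 1.24 FPKM against 1.51, 1.38 and 1.47 FPKM (0.24 ± 0.09, adjusted p = 0.696), and its value in the 4 libraries was 0.31. Neither passed over all genes. Pcdh18 and Pcdh11x lay close to the filter of 1 FPKM, where the scale understates a difference: with a pseudocount of 0.1 their log2 fold changes were 0.40 and 0.35.

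Pcdh19, linked to an epilepsy that mainly affects females, varied widely within each label: 10.01, 14.4 and 8.21 against 6.21, 7.41 and 11.9 FPKM. Pcdh8, known as arcadlin and induced by synaptic activity, ranged 3.79-fold, with 3.85, 7.24 and 8.73 against 14.6, 7.22 and 5.26 FPKM (log2 fold change 0.35 ± 0.41, limma adjusted p = 0.928). Without APP/PS1 replicate 1 the sign of Pcdh8 turned, to -0.03, and it was 0.05 without WT replicate 1 and 0.64 in the 4 libraries. The 11 immediate early genes, which activity also induces, all had a negative log2 fold change. They summed to 472.1, 405.4 and 353.8 against 209.9, 296.5 and 178.5 FPKM. Their part in the values of Pcdh8 was not tested. Pcdh15, a tip-link protein of hair cells, was low at 1.27, 1.34 and 1.20 against 1.09, 1.38 and 1.55 FPKM.

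Cadherins had the smallest spread of the 5 classes. The median member had a within-label SD of 0.084 on the log2(FPKM + 1) scale, and all genes tested had a median of 0.101. Their 17 rows summed to 89.4, 92.9 and 94.9 against 92.4, 93.3 and 96.0 FPKM. Cdh2, the N-cadherin of synaptic junctions, led at 18.2, 19.5 and 18.9 against 19.0, 18.2 and 19.1 FPKM. It differed by 1.07 times between its highest and lowest library. The other type I genes were low. Cdh4 (R-cadherin) lay between 1.80 and 2.37 FPKM, Cdh3 (P-cadherin) between 0.710 and 1.24 FPKM, and Cdh1 (E-cadherin, of epithelia) between 0.132 and 0.910 FPKM, a 6.90-fold range below the filter.

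Type II cadherins made up most of the rest, and several mark subsets of hippocampal neurons. Cdh11 followed Cdh2 at 13.7, 14.1 and 15.4 against 14.6, 14.4 and 15.1 FPKM. Cdh8 was listed at 8.69, 9.12 and 9.04 FPKM against 8.27, 8.58 and 8.28 FPKM (log2 fold change -0.09 ± 0.05, limma adjusted p = 0.840). The labels of Cdh8 did not overlap, yet the gap was a small part of its level. Cdh10, another type II cadherin, lay the other way, 4.49, 4.83 and 4.77 against 4.97, 4.88 and 5.15 FPKM (0.07 ± 0.06, adjusted p = 0.886). Cdh18 had 3.31, 3.61 and 2.76 against 3.47, 3.66 and 3.99 FPKM (0.16 ± 0.10, adjusted p = 0.835), with overlap, and its log2 fold change was 0.08 without WT replicate 3.

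Cdh7 had the smallest p of the family. It was listed at 0.629, 0.874 and 0.799 against 1.26, 1.21 and 1.15 FPKM (log2 fold change 0.32 ± 0.09, limma adjusted p = 0.609). All WT-labelled libraries were under 1 FPKM. Cdh7 therefore passed the filter through the APP/PS1-labelled libraries alone and had to differ, and its place in the counts above is no support for them. Its log2 fold change was 0.34 in the 4 libraries. Cdh13, the cadherin held by a lipid anchor in place of a membrane-spanning part, had 4.42, 4.63 and 4.92 against 5.46, 4.91 and 4.93 FPKM and overlapped narrowly.

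In the alpha cluster the C-type gene Pcdhac2 was the highest in every library. It was listed at 8.50, 8.86 and 8.09 against 8.98, 8.58 and 9.12 FPKM, between 31.2% and 36.3% of the summed alpha FPKM. Every other alpha row lay between 0.409 and 2.74 FPKM. Pcdhac1, the other C-type gene, had 1.69, 1.54 and 1.61 against 1.34, 1.45 and 1.53 FPKM (log2 fold change -0.10 ± 0.08, limma adjusted p = 0.880). Its labels did not overlap, with WT replicate 2 just above APP/PS1 replicate 3. Pcdha6 had 2.39, 2.48 and 2.74 against 1.65, 2.21 and 2.68 FPKM (-0.17 ± 0.12, adjusted p = 0.877), and Pcdha12 2.20, 2.72 and 2.41 against 2.10, 2.23 and 2.50 FPKM, both with overlap. The log2 fold change of Pcdha6 was -0.04 without APP/PS1 replicate 1, and with only APP/PS1 replicate 3 left out it was -0.28.

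Alpha genes as a class showed no common direction. Of the 11 tested rows 6 were positive, with a median log2 fold change of 0.009 where that of all genes tested was -0.001. They summed to 26.7, 28.4 and 25.0 against 24.8, 26.5 and 28.8 FPKM over all 14 rows. The 2 rows named Pcdha11 lay between 1.16 and 1.40 and between 0.954 and 2.52 FPKM, and the tables do not say how they differ. Because alpha genes share constant exons, and gamma genes theirs, reads from those exons could be given to any gene of the cluster by the authors' counting. The level of a single alpha or gamma gene is therefore uncertain.

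Beta protocadherins were low, and all 21 had a positive log2 fold change. Class medians lay between 2.21 and 2.74 FPKM per library. Pcdhb9 (4.11, 4.55 and 4.96 against 4.93, 4.49 and 4.71 FPKM), Pcdhb17 (4.002, 4.09 and 4.38 against 3.86, 3.83 and 5.11 FPKM) and Pcdhb16 (3.59, 4.13 and 3.95 against 3.99, 3.79 and 4.39 FPKM) were the highest on average. The log2 fold changes ran from 0.02 to 0.58 with a median of 0.12, where 49.6% of all genes tested were positive. Of the 21, 0 passed by limma and 0 had an unadjusted p under 0.05 (lowest adjusted p = 0.765). The members were chosen with earlier results known, so the shared sign is a description and was given no test.

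Libraries differed in how far they carried this shared sign. Summed beta FPKM was 46.5, 51.2 and 50.4 against 57.8, 51.2 and 59.0. WT replicate 1 was the lowest library for 11 of the 21 genes and APP/PS1 replicate 3 the highest for 11, with APP/PS1 replicate 1 the highest for another 7. APP/PS1 replicate 2 lay level with WT replicate 2. With any single library left out 18 to 21 of 21 were positive (18 without WT replicate 1, 19 without APP/PS1 replicate 3), with medians of 0.092 to 0.172, and in the 4 libraries 20, with a median of 0.139, where 49.4% of all genes tested were positive. The sum of immediate early genes given above was highest in WT replicate 1 and lowest in APP/PS1 replicate 3. The mitochondrial share of FPKM was 9.30%, 8.87% and 9.31% against 10.3%, 9.70% and 11.3%, highest in APP/PS1 replicate 3. Their part in the beta values was not tested.

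**Figure D2:**
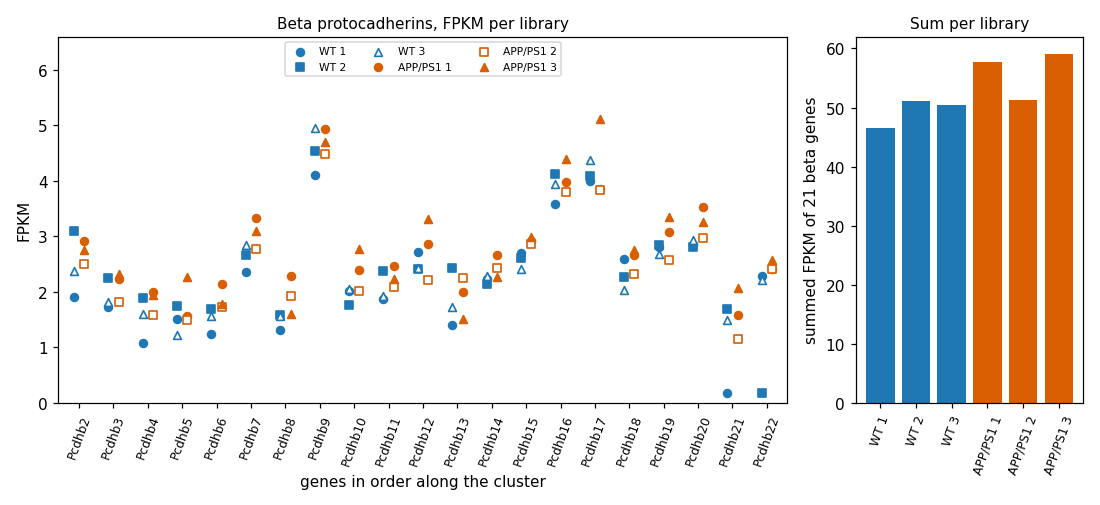
Left, FPKM of the 21 beta protocadherins in their order along the cluster, 1 point per library (blue WT, orange APP/PS1, open points WT replicate 3 and APP/PS1 replicate 2). Right, their sum per library as bars from 0, with APP/PS1 replicates 1 and 3 at 57.8 and 59.0 FPKM and the other libraries between 46.5 and 51.2 FPKM.

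In 5 beta genes the labels did not overlap, all higher, where 5.38% of all genes tested were. Pcdhb8 had 1.32, 1.57 and 1.56 against 2.28, 1.93 and 1.595 FPKM (log2 fold change 0.24 ± 0.11, limma adjusted p = 0.765). Pcdhb6 had 1.24, 1.68 and 1.56 against 2.14, 1.73 and 1.77 FPKM (0.21 ± 0.10, adjusted p = 0.793). In both, the lowest APP/PS1-labelled library lay just above the highest WT-labelled one. Without APP/PS1 replicate 1 the value of Pcdhb8 was 0.15, and without WT replicate 1 that of Pcdhb6 was 0.13. Pcdhb15 and Pcdhb20 each had a log2 fold change of 0.14. Pcdhb22 stood at 2.29, 0.176 and 2.21 against 2.41, 2.41 and 2.58 FPKM, a log2 fold change of 0.58 that was 0.09 without its single low library, WT replicate 2. Pcdhb21 had a like drop, to 0.174 FPKM in WT replicate 1 where the other 5 libraries held 1.16 to 2.06 FPKM. Beta genes resemble each other in sequence, so reads could be divided between neighbours, and single values are uncertain.

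In the gamma cluster a different gene stood highest in nearly every library. As said for the alpha genes, reads from shared constant exons could be given to any gene of the cluster, so these single levels are uncertain. In WT replicate 1 Pcdhga9 stood at 33.1 FPKM, 30.0% of the gamma sum, and at 4.22 to 10.8 FPKM in the others. Pcdhga2 stood at 30.9 FPKM in APP/PS1 replicate 2 and at 2.99 to 4.13 FPKM in the others. The highest gene of WT replicate 2 was Pcdhgb7, at 19.4 FPKM with 3.66 to 5.004 FPKM elsewhere. That of WT replicate 3 was Pcdhgb2, at 16.2 FPKM with 3.03 to 4.80 FPKM elsewhere. Pcdhga1 reached 8.49 FPKM in WT replicate 3 and at most 1.99 FPKM in any other library, and Pcdhgc4 reached 9.46 FPKM in WT replicate 2 and at most 3.44 FPKM otherwise.

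These 6 of 21 genes had a highest library over 2 times the next, a rule chosen after their values were seen and given no test. Among the 8746 tested genes within the range of mean levels of gamma members, 0.194% did so, and 0 of 14 alpha, 0 of 21 beta, 0 of 11 non-clustered and 0 of 17 cadherin rows did. Leaving out single libraries gave counts of 4 to 6, and the 4 libraries gave 4. The rule of 2 times the next counts rises alone, so the single low libraries of Pcdhb22 and Pcdhb21 are not in it. Of the 21 gamma genes, 11 had a highest library over 3 times the lowest, where 1.89% of genes at those levels had one. So did 2 of 21 beta, 1 of 11 non-clustered, 0 of 11 alpha and 0 of 16 cadherin rows tested, where 2.39% of all genes tested did. The median within-label SD was 0.459 for gamma genes on the log2(FPKM + 1) scale, 0.127 for alpha, 0.128 for beta and 0.141 for non-clustered genes.

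The sum over the cluster varied less than many of its genes. Summed gamma FPKM was 110.4, 138.6 and 117.1 against 124.1, 112.8 and 131.4, a range of 1.26-fold beside 1.27-fold for the beta sum. Single gamma genes reached an 11.5-fold range, for the C-type gene Pcdhgc3. It took one of 2 levels: 1.81, 16.7 and 1.72 against 15.5, 1.505 and 17.3 FPKM. Nothing lay between, and both labels held both levels. Pcdhgc5, the last gene of the cluster, had the smallest range at 11.8, 10.9 and 10.6 against 10.9, 11.3 and 11.6 FPKM, 1.11-fold.

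**Figure D3:**
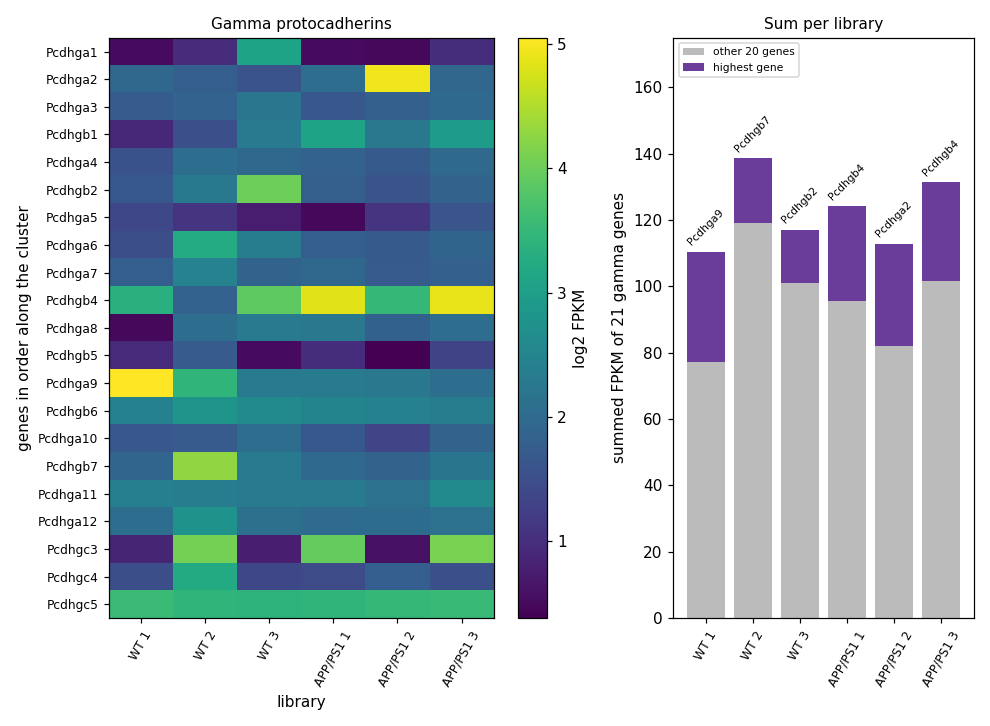
Left, log2 FPKM of the 21 gamma protocadherins as colour, with genes in order along the cluster and libraries in columns. Right, summed gamma FPKM per library as bars from 0, the highest gene (named) in purple and the others in grey; it is Pcdhga9, Pcdhgb7, Pcdhgb2 and Pcdhga2 in 1 library each and Pcdhgb4 in APP/PS1 replicates 1 and 3, while the sums lie between 110.4 and 138.6 FPKM.

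Between labels the gamma values have to be read with that spread. Pcdhgb1 was listed at 1.87, 2.89 and 4.91 FPKM against 8.55, 4.78 and 7.72 FPKM (log2 fold change 0.96 ± 0.31, limma adjusted p = 0.681, and 1.45 with adjusted p = 0.0816 in the 4 libraries). Its WT replicate 3 lay just above APP/PS1 replicate 2, so the only overlap was between the pair of libraries that App set against their labels. Pcdhgb4 had 10.2, 3.58 and 14.9 against 28.6, 11.3 and 29.6 FPKM (1.26 ± 0.58, adjusted p = 0.791, with 2.07 in the 4 libraries and 0.74 without WT replicate 2), with overlap of the same 2 libraries. The log2 fold change of Pcdhga9 was -1.24, and -0.56 without WT replicate 1. That of Pcdhga2 was 1.07, and 0.17 without APP/PS1 replicate 2. The class median was -0.116, with 6 of 21 positive, and it was 0.002 without WT replicate 2 and -0.009 in the 4 libraries.

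**Figure D4:**
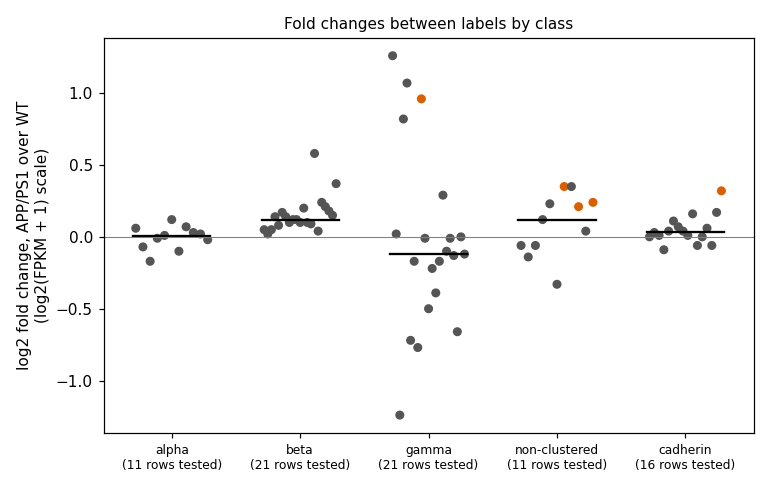
Log2 fold changes of APP/PS1-labelled over WT-labelled libraries on the log2(FPKM + 1) scale, 1 point per tested row, with class medians as bars and points with an unadjusted p under 0.05 by limma in orange. Beta genes all lie above 0 (median 0.12), and gamma genes spread from -1.24 to 1.26.

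Genes that hold, control or process these proteins were compared in the same fit, and 0 of the 61 tested passed over all genes. An unadjusted p under 0.05 was found for 3 of the 61, where 6.69% of all genes tested had one. None of 8 catenins, which link cadherins to actin, had an unadjusted p under 0.05. Ctnnb1, beta-catenin, had 37.5, 31.5 and 40.6 against 36.5, 48.8 and 30.3 FPKM, and Pkp4, the highest of the list, 45.9 ± 1.92 against 45.9 ± 1.42 FPKM (SD, n = 3). Of 15 regulators of the clusters, among them Ctcf and the cohesin subunits that loop promoters to enhancers, 0 had an unadjusted p under 0.05. Ctcf stood at 12.4, 13.6 and 14.3 against 13.9, 13.7 and 13.7 FPKM, and the cohesin gene Rad21, highest of the list, at 27.2, 27.6 and 27.0 against 28.4, 27.3 and 27.9 FPKM. Of 9 genes for proteases that cut cadherins and their subunits, Adam10 among them, again 0 had one.

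Among 14 other members of the cadherin superfamily, 1 was higher and 1 lower at an unadjusted p under 0.05. Fat4, a giant cadherin of the Hippo and planar polarity pathways, had 9.32, 9.23 and 11.8 against 7.63, 8.66 and 6.40 FPKM (log2 fold change -0.38, limma adjusted p = 0.664). Dchs2, of the Dachsous family that binds Fat cadherins, had 1.17, 1.05 and 1.478 against 1.82, 1.90 and 1.485 FPKM (0.29, adjusted p = 0.696). Neither overlapped between labels, Dchs2 only by the gap between its WT replicate 3 and APP/PS1 replicate 3. Of 15 protocadherin effectors 1, Ptk2b, a kinase bound by alpha and gamma tails, had an unadjusted p under 0.05, with 83.0, 81.9 and 90.4 against 73.3, 83.1 and 70.03 FPKM and overlap.

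Cell type markers were read beside these values. Excitatory neuron markers (0 of 4 with a positive log2 fold change) summed to 455.5 to 465.5 against 425.9 to 446.3 FPKM. Camk2a had a log2 fold change of -0.12 and Grin2a of -0.09, while Slc17a7 and Neurod6 were nearly level at -0.02 and 0. Dentate granule markers, whose sums are given above, were positive in 0 of 5 (median log2 fold change -0.275), and their sums did not overlap. Oligodendrocyte markers (6 of 6 positive) summed to 291.0 to 374.3 against 351.8 to 426.3 FPKM, with overlap. Of them 3 had an unadjusted p under 0.05 by limma, where 2.85% of all genes tested were higher at that level. Choroid plexus markers were positive in 6 of 6, 2 of them with an unadjusted p under 0.05. They summed to 1064.8, 1195.7 and 852.6 against 1188.4, 1382.8 and 1108.3 FPKM, also with overlap. Most of this sum was Ttr, at 1013.9, 1142.5 and 805.6 against 1125.3, 1320.7 and 1050.0 FPKM. In the 4 libraries Ttr, Kcnj13, Otx2 and Kl had log2 fold changes of 0.01, 0.02, 0.03 and -0.07. Those of Sostdc1 and Folr1 were 0.52 and 0.20 there. Leptomeningeal fibroblast markers (2 of 5 tested positive) summed to 23.8 to 25.9 against 24.1 to 28.9 FPKM. Like nearly all rows, none of these markers was at 0 in any library. The part of these markers in the values of the non-clustered, cadherin or beta genes was not tested. Circular RNAs added no values for these genes. Of the 257 circRNAs listed with coordinates, 0 overlapped any of the 83 genes in the GRCm38 annotation. Their build is not stated, and 254 of them lay inside a gene of that annotation. The 1989 circRNAs known by number alone were not placed.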

How the data were processed

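Gene values are FPKM deposited by the authors. No file header names this unit. It was read from the decimals, the totals of 182355 to 185217 per library and the tools in the submitters' processing notes (FastQC, HISAT2, StringTie, build mm9, without versions or roles). The circRNA counts deposited by the authors, 13998 to 19584 reads per library, served only for coordinates. A name on several rows (21 names) kept each row apart.

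Rows reaching 1 FPKM in 3 or more libraries (13700 of 15639) were tested by limma 3.58.1 (R 4.3.3, trend and robust) on log2(FPKM + 1), WT against APP/PS1, with Benjamini-Hochberg adjustment over all of them and a threshold of 0.05. This scale understates the change of low genes. The fit was also run on simulated data with independent normal noise and known labels. Single-library jumps like those of the gamma genes, and libraries set against their label, were not simulated, so the run does not cover them. Members, lists and alternatives were chosen with earlier results of these data known. Named members had an unadjusted p under 0.05, libraries that do not overlap, 1 of the 3 highest means or 1 of the 2 smallest p in their class. Related genes were named for level or smallest p. Pcdh8, Pcdh9, Pcdh15, Pcdh19, Pcdhb21, Cdh1, Cdh3, Cdh4, Cdh13, Ctnnb1, Ctcf and the gamma genes named for their spread were chosen after their values were seen. Tried as alternatives were filters, a smaller pseudocount (0.1), quantile and TMM scaling (edgeR 4.0.16), variance models, a replicate block and left-out libraries. Promoters are RefSeq, GRCm38.p6.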

Additional observations from a re-analysis of the deposited data

How the results depend on the processing

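No member passed an adjusted p of 0.05 by limma under any of the 15 alternatives run, and the smallest adjusted p was 0.0816, for Pcdhgb1 in the 4 libraries without WT replicate 3 and APP/PS1 replicate 2. Members with an unadjusted p under 0.05 numbered 5 (6.69% of all genes tested had one), 2 of 58 with a minimum of 2 FPKM (6.71%), 9 with array weights (8.58%), and 1 to 6 with single libraries left out (4.08% to 9.09%). The median log2 fold change of alpha genes was 0.009, and -0.070 with a minimum of 2 FPKM, which left 3 rows. That of non-clustered protocadherins was 0.117, and 0.031 with that minimum, 0.063 in the 4 libraries and 0.053 (without WT replicate 1) to 0.126 with 1 library left out. That of cadherins was 0.032, and 0.067 in the 4 libraries and 0.002 to 0.075 (without WT replicate 3) with 1 left out. The causes were not tested. Pcdh8 ran from -0.03 to 0.63 with 1 library left out (APP/PS1 replicates 1 and 3), and was 0.64 in the 4 libraries. Of the other values for named genes, 367 kept their direction and side of the threshold. With the replicate number as a block 0 members passed, the smallest adjusted p was 0.22 (Pcdhgb4) and 6 had an unadjusted p under 0.05 (5.99% of all genes tested). Deviations of libraries with the same number correlated at 0.01, -0.056 and -0.094, and those with unlike numbers at -0.054 to 0.101. The labels state no pairing, and correlations over 3 libraries per label cannot decide whether the numbers pair the samples. Count tests of circRNAs were not run, since 0 overlapped a member. Depth is unknown, and values near 1 FPKM may rest on few fragments.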
